A study of Mus musculus with 27 samples.

Results

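Epithelial cells sorted from the lungs of wild-type (WT) mice were compared with the unsorted cells of WT lungs by RNA sequencing. The comparison used 6 of the 27 libraries of the study: 3 of Epcam+CD11b-CD11c- epithelial cells (WT8, WT9 and WT10) and 3 of total lung cells (WT11, WT12 and WT13). Both groups came from C57BL/6 mice whose lungs carried no tumour, and the lungs were perfused and dissociated before sorting or harvest. The injection of HKP1 lung cancer cells into the tail vein is entered in the labels of WT libraries too, and no other treatment is named for them. Age, sex, the number of animals and any pooling are not given in the labels, so p-values measure the spread between these libraries, which may be technical. Levels are FPKM, fragments counted per length of transcript and per size of library, which are per length and can be compared between genes. The values of a gene are given in the order WT8, WT9 and WT10 for epithelial cells and WT11, WT12 and WT13 for total lung cells. The table lists 16024 genes. A gene was kept if 2 or more of the 6 libraries reached 1 FPKM, which left 11895, and 11864 of these were tested. The other 31 had only exact zeros in 1 group, 26 of them in the epithelial group and 5 in the total lung group. Such a 0 can be a failed estimate, so these genes have no difference and no test.

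The lung epithelium lines the airways and the gas exchange surface. Flat alveolar type I cells cover most of that surface, cuboidal alveolar type II cells make and recycle surfactant and can renew type I cells, and the airways are lined mainly by secretory club cells and by ciliated cells that move mucus. Total lung holds these cells together with capillary endothelium, fibroblasts, smooth muscle and resident and circulating leukocytes, so the comparison shows which transcripts are enriched in the Epcam+ fraction and which are depleted from it. In bulk libraries, fewer cells of a type and less RNA per cell cannot be told apart.

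In all, 3790 genes were higher in epithelial cells (31.9% of those tested) and 3753 were lower (31.6%), by limma on log2(FPKM + 1) at an adjusted p under 0.05. A difference of at least 1 on the log2 scale was reached by 1962 higher genes (16.5%) and by 1931 lower genes (16.3%). These 2 counts were 1164 and 1139 with a pseudocount of 5 in place of 1. The libraries of the groups did not overlap for 4233 genes that were higher in epithelial cells (35.7%) and for 4222 that were lower (35.6%). The median difference over all genes tested was -0.02. The sides differed in reach. Among the higher genes 28 differed by at least 3 and none by 4, the largest difference being 3.39, whereas among the lower genes 288 differed by at least 3, 58 by at least 4 and 14 by at least 5, down to -8.64. Pearson correlations of log2 levels across genes were 0.945 to 0.973 between epithelial libraries, 0.980 to 0.989 between total lung libraries and 0.735 to 0.769 between the groups. Each of the 6 libraries had 10932 to 11420 of the tabulated genes at 1 FPKM or more. The number of reads behind these values is unknown.

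**Figure D1:**
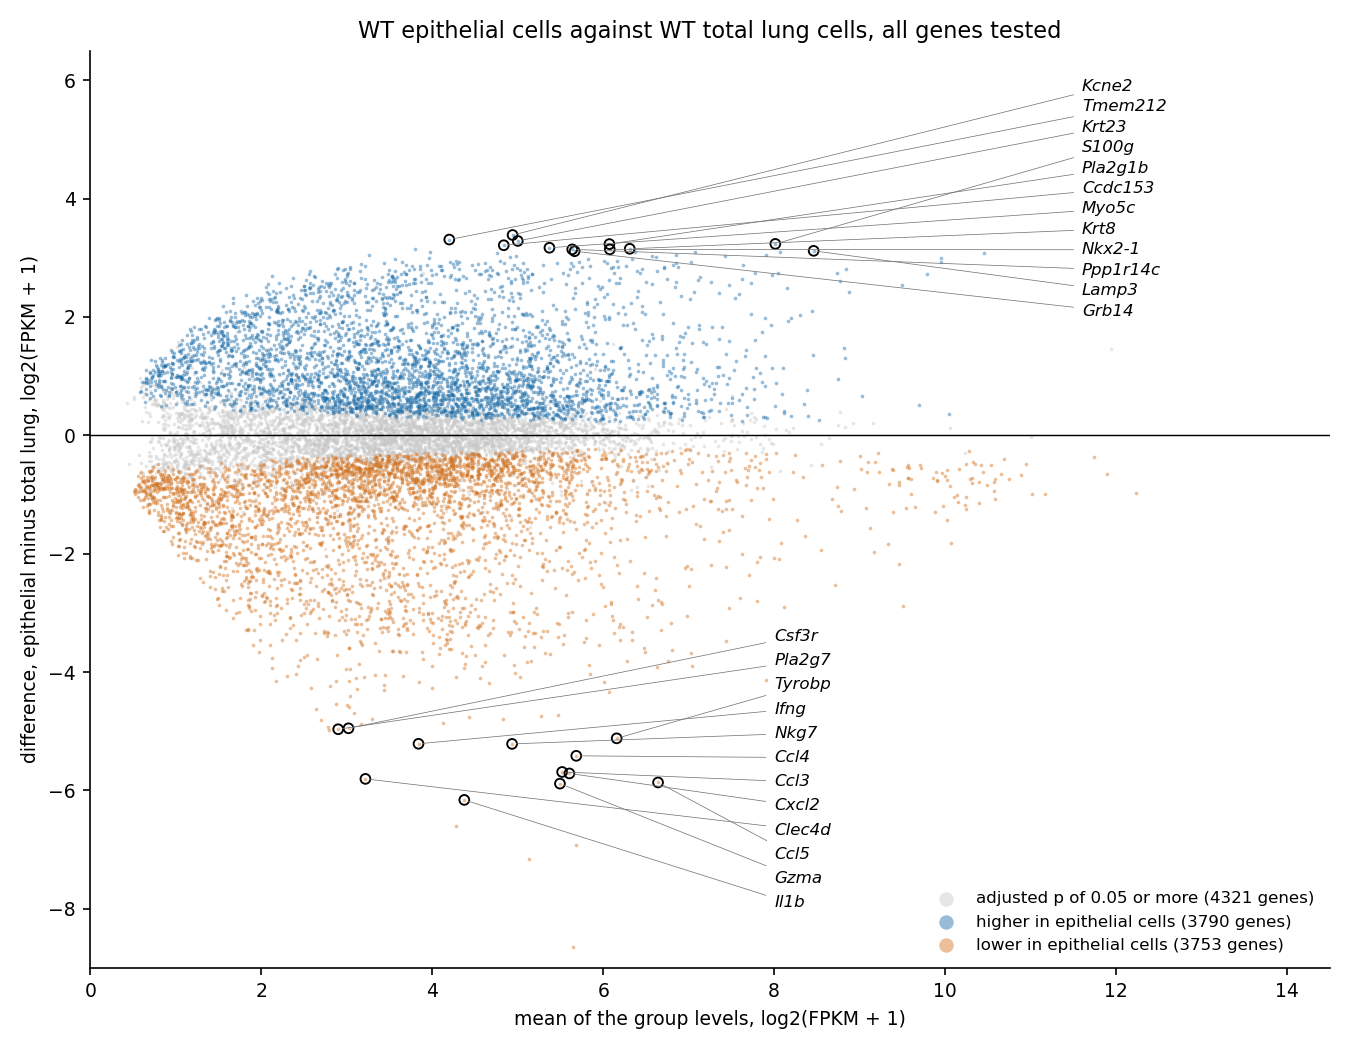
Difference between WT epithelial cells and WT total lung cells on the log2(FPKM + 1) scale (vertical) against the mean of the levels of the 2 groups (horizontal), 1 point per gene tested. Blue genes were higher and orange genes lower in epithelial cells at an adjusted p under 0.05, and circles mark the 12 genes of largest rise and the 12 of largest fall by the naming rule. The upper edge of the cloud lies near 3, while the lower edge reaches -8.64.

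The sorted cells carried the markers of their gate. Epcam, the adhesion molecule used in the sort, was at 89.5, 77.4 and 94.3 FPKM in the epithelial libraries and at 11.8, 16.2 and 11 FPKM in total lung, a log2 difference of 2.67 ± 0.16 (SE). Itgam, which encodes CD11b, was at 1.02, 1.27 and 0 FPKM against 33.3, 49.8 and 36.2. Itgax, which encodes CD11c, was at 1.72, 5.69 and 2.27 FPKM against 35.3, 38 and 36.6. For each of these 3 genes the groups did not overlap, and the leukocyte integrins used to exclude cells were low in epithelial cells, Itgam being listed at 0 in WT10. The epithelial genes Cdh1 and Krt8 were not part of the gate. Cdh1, which encodes E-cadherin, was at 191, 186 and 199.6 FPKM against 22.3, 34.9 and 22 (difference 2.85 ± 0.17, limma adjusted p = 2.15e-05). The pan-leukocyte phosphatase Ptprc (CD45) was at 16.3, 37.6 and 20.6 FPKM against 259, 258 and 285 (difference -3.46 ± 0.27, limma adjusted p = 3.97e-05). WT9 had the highest Ptprc and Itgax of the epithelial libraries.

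Ager and Hopx mark alveolar type I cells, and they did not behave alike. Ager, the receptor for advanced glycation end products, was at 1183, 1047 and 1445 FPKM in epithelial cells against 155, 191 and 175 in total lung (difference 2.80 ± 0.14, limma adjusted p = 1.56e-05). Hopx, a homeodomain-only protein, was at 75.7, 86.8 and 65.1 FPKM against 45.9, 34.2 and 80.0, and its groups overlapped because WT13 lay among the epithelial libraries. Its difference of 0.58 ± 0.28 did not pass (limma adjusted p = 0.109), but it was 0.91 without WT13 (adjusted p = 0.00542).

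**Figure D2:**
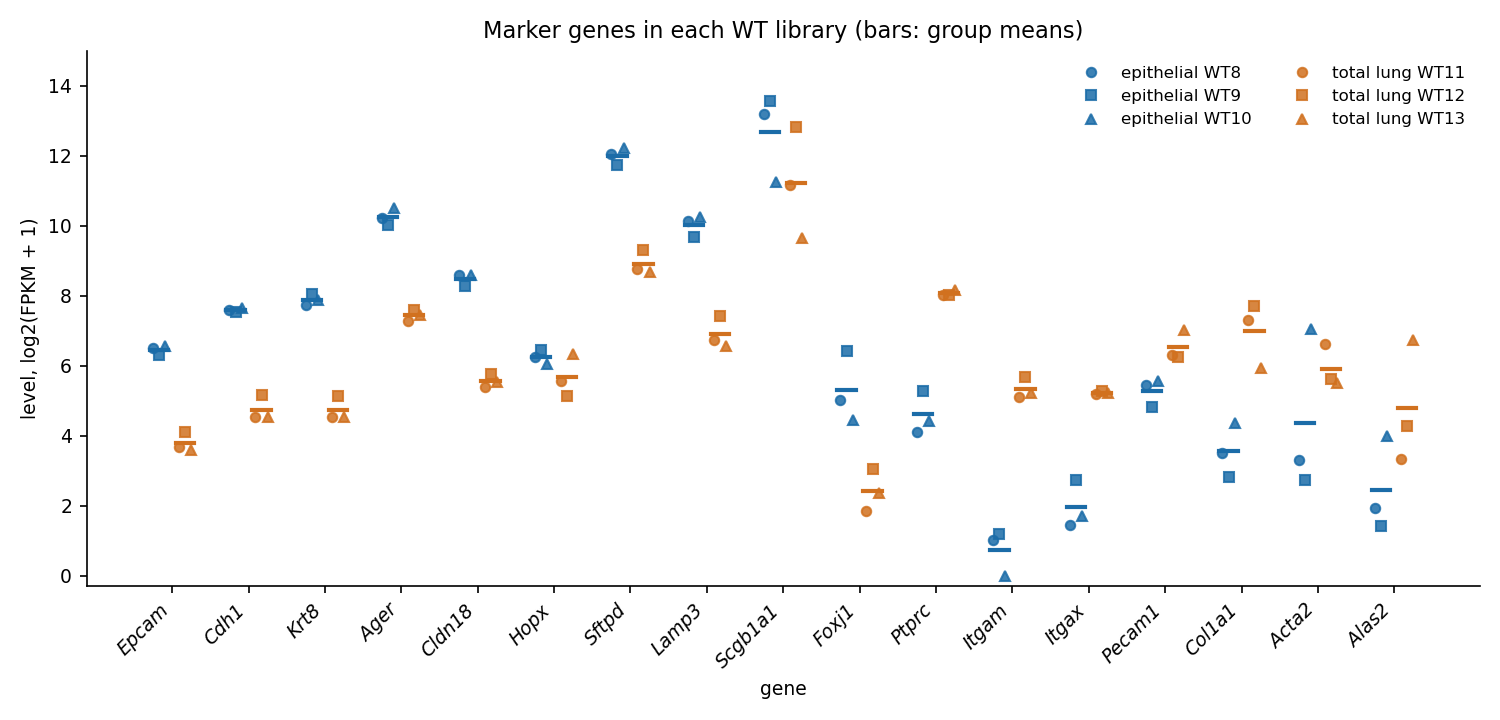
Levels of 17 marker genes, as log2(FPKM + 1), in the 3 WT epithelial libraries (blue) and the 3 WT total lung libraries (orange), with a bar at each group's mean of the log2 values and 1 symbol per library. Epcam, Cdh1, Krt8, Ager, Cldn18, Sftpd, Lamp3 and Foxj1 separate with epithelial cells on top, Ptprc, Itgam, Itgax, Pecam1 and Col1a1 separate the other way, and Hopx, Scgb1a1, Acta2 and Alas2 overlap.

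The 12 genes of largest rise by the naming rule came from several kinds of epithelial cell. Kcne2, an ancillary subunit of potassium channels (GRCm38 chr16:92292389-92298129, plus strand), led with 94.2, 83.3 and 121 FPKM in epithelial cells against 6.87, 11.4 and 7.74 in total lung, a difference of 3.39 ± 0.20 (limma adjusted p = 2.1e-05). S100g, the calcium-binding protein calbindin-D9k, was at 774, 744 and 863 FPKM against 82.4, 104 and 67.1 (difference 3.24 ± 0.16, adjusted p = 1.51e-05 by limma). Krt23, an acidic keratin, was at 109.8, 88.3 and 99.8 FPKM against 9.33, 11.4 and 7.41 (difference 3.29 ± 0.16). In each of these genes every epithelial library lay several-fold above every total lung library. Pla2g1b, a secreted phospholipase A2, was at 204, 206 and 205 FPKM against 19.5, 27 and 17.4 (difference 3.23 ± 0.16), and its epithelial libraries lay closer together than those of any other gene of the 12. Nkx2-1, the homeodomain factor that specifies lung epithelium (GRCm38 chr12:56531958-56536908, minus strand), was at 216, 187 and 197 FPKM against 22.3, 26 and 17.6 (difference 3.14 ± 0.15, limma adjusted p = 1.47e-05). Lamp3, a membrane protein of lamellar bodies, was at 1125, 820.0 and 1212 FPKM against 105, 170.0 and 93.1 (difference 3.12 ± 0.24). Tmem212 and Ccdc153 are expressed in ciliated cells, and both were much higher in WT9 than in the other epithelial libraries. Tmem212 was at 39.1, 143 and 32.5 FPKM against 4.29, 8.20 and 3.08 (difference 3.31 ± 0.56, limma adjusted p = 0.00149). Ccdc153 was at 62, 188 and 54.3 FPKM against 6.42, 13.2 and 6.82 (difference 3.21 ± 0.48). The other members of the 12 were Myo5c (a class V myosin; difference 3.17 ± 0.15), Krt8 (3.15 ± 0.18), Ppp1r14c (an inhibitor of protein phosphatase 1; 3.14 ± 0.21) and Grb14 (an adaptor of the insulin receptor; 3.11 ± 0.21).

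Promoters of 4 of these epithelial genes are shown because Lamp3, S100g and Krt23 were among the largest rises and Sntn, which encodes a protein of the ciliary tip, stood at 9.34, 16.1 and 4.05 FPKM against 1.06, 1.21 and 0.811 (difference 2.25 ± 0.40, limma adjusted p = 0.002). They were chosen after the values and the matches were seen. Each is the 250 bases before the start site of the gene on its own strand, from RefSeq on GRCm38.p6, in lower case, 5′ to 3′. Capitals mark matches, on either strand, to a forkhead motif of FOXA factors (TGTTTNC, reverse GNAAACA), to a motif of NKX2-1 (CTCAAG, reverse CTTGAG) or to the RFX half-site (GTTGCCA, reverse TGGCAAC), and no match shown overlapped another.
Lamp3 (chr16:19706366-19706615, minus strand): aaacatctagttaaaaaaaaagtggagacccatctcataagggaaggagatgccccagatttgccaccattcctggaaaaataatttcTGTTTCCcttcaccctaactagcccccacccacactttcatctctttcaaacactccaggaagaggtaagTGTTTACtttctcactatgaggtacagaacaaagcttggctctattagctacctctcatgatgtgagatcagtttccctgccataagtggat
S100g (chrX:162964600-162964849, minus strand): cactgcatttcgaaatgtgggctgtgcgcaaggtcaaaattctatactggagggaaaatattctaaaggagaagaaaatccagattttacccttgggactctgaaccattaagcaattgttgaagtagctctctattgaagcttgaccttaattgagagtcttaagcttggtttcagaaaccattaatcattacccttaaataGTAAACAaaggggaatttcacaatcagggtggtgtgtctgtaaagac
Krt23 (chr11:99493121-99493370, minus strand): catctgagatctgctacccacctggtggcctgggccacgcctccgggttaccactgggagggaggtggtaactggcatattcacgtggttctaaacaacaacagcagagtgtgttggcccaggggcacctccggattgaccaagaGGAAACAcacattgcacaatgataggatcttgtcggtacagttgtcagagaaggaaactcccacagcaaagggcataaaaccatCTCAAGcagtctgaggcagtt
Sntn (chr14:13670626-13670875, plus strand): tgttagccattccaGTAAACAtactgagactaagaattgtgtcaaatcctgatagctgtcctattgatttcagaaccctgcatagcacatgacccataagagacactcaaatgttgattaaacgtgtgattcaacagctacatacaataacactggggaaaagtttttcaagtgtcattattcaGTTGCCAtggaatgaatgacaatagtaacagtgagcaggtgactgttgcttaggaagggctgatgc
Lamp3 held 2 forkhead matches, starting 162 and 92 bases before the start site. S100g held 1, at 47 bases. Krt23 held 1 forkhead match at 105 bases and an NKX2-1 match at 21 bases, and Sntn a forkhead match at 236 bases and an RFX match at 66 bases. Such matches are common. The forkhead letters were in 17.8% of all 32851 promoters of this length, the NKX2-1 letters in 13.3% and the RFX letters in 3.66%. RefSeq promoters were found for 1409 of the 1962 genes that were higher by at least 1, and among these 1856 promoters the shares were 14%, 12.5% and 4.26%. Among the 1876 promoters found for genes that were lower by at least 1 they were 15.2%, 12.4% and 3.04%. Over the 11506 promoters of the genes tested they were 13.3%, 12.1% and 3.35%. Of the 13 promoters found for ciliated cell genes, 5 held the forkhead letters, 3 the NKX2-1 letters and 3 the RFX letters. Of the 16 found for alveolar type II genes these numbers were 4, 1 and 1, and of the 22 found for alveolar type I genes 5, 3 and 0. Of the 29 found for adhesion and junction genes they were 2, 4 and 0.

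Most alveolar type I genes were higher in epithelial cells. Of the 20 listed, 15 were higher, 11 of them by at least 1, none was lower and 5 did not pass, with a median difference of 1.68. Cldn18, the tight junction claudin of alveolar epithelium, was at 383, 310.4 and 386 FPKM in epithelial cells against 41.1, 53.1 and 45.3 in total lung (difference 2.93 ± 0.13, limma adjusted p = 1.39e-05). Aqp5, the apical water channel of type I cells, was at 281, 254 and 304 FPKM against 34.3, 48.5 and 33.3 (difference 2.84 ± 0.16). Gprc5a (2.78 ± 0.17), an orphan receptor of the lung, Clic3 (2.57 ± 0.12), an intracellular chloride channel protein, and the tetraspan protein Emp2 (2.05 ± 0.22) were higher as well. Besides Hopx, the members that did not pass were Cav1, Pdpn, Spock2 and Vegfa. Cav1, the caveolar coat protein that endothelial cells also make, was at 87.2, 44.3 and 86.1 FPKM against 90.6, 101 and 159 (difference -0.70 ± 0.31, adjusted p = 0.0783 by limma). Pdpn, or podoplanin, which lymphatic endothelium and some fibroblasts also make, was at 5.68, 5.05 and 4.26 FPKM against 6.67, 7.98 and 5.37. The proteoglycan gene Spock2 was at 3.69, 2.94 and 5.45 FPKM against 4.97, 7.15 and 5.29. The angiogenic ligand Vegfa was at 133, 106 and 95.3 FPKM against 70.0, 83 and 111. Every total lung library lay above every epithelial library for Cav1, which passed after quantile normalization (-0.80, limma adjusted p = 0.0476), and the groups overlapped for the other three. By limma, Vegfa passed as higher without WT13 (0.53, adjusted p = 0.0349) and Spock2 as lower without WT10 (-0.65, adjusted p = 0.0259).

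Genes of alveolar type II cells were enriched together. Of the 25 listed, 22 were in the table and 18 were tested. Each of the 18 was higher in epithelial cells with no overlap between the groups, and their differences ran only from 2.11 to 3.24, with a median of 2.85. Sftpd, or surfactant protein D, a collectin, was the most abundant of them, at 4205, 3383 and 4776 FPKM against 437, 628 and 408 (difference 3.08 ± 0.20, limma adjusted p = 2.46e-05). The fatty acid desaturase Scd1 was at 2467, 1666 and 2812 FPKM against 341, 443 and 265 (difference 2.72 ± 0.24). Napsa, the aspartic protease that helps process surfactant proteins, was at 1766, 1485 and 1993 FPKM against 289, 335 and 272 (difference 2.54 ± 0.14). In all 3 of these genes WT10 was the highest and WT9 the lowest of the epithelial libraries. Hc, which encodes complement C5, was at 710.0, 546 and 842 FPKM against 66.2, 122 and 68.1 (difference 3.05 ± 0.26). Egfl6, a secreted matrix protein, was at 249, 205 and 274 FPKM against 24.5, 38.8 and 21.1 (difference 3.10 ± 0.22). Abca3, the lipid transporter of lamellar bodies, was at 415, 269 and 399.9 FPKM against 46.8, 73.3 and 47.2 (difference 2.68 ± 0.23). The transcription factor genes Etv5 (2.84 ± 0.28) and Cebpa (2.58 ± 0.21) also rose.

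The remaining type II genes could not be read. Sftpb, Sftpa1 and the phosphate transporter Slc34a2 were listed at 0 in all 3 epithelial libraries. In total lung Sftpb was at 1407, 2159 and 1253 FPKM, Sftpa1 at 911, 1375 and 829 FPKM and Slc34a2 at 360.1, 565 and 331 FPKM. Sftpc was listed at 0 in all 6 libraries, although its mean was 567 FPKM in WT macrophages and 1005 FPKM in WT monocytes. The proteins of Sftpb and Sftpc are the hydrophobic surfactant proteins. Other genes were at 0 in the other group. The splicing helicase Ddx39b, which most cells use, and the heat shock gene Hspa1a were listed at 0 in all 3 total lung libraries, with means of 437 and 111 FPKM in epithelial cells.

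Airway secretory genes varied widely between libraries. Of 20 club and airway secretory genes, 14 were in the table and 13 were tested. Of these, 5 were higher, 1 was lower and 7 did not pass, beside 31.9% higher and 31.6% lower over all genes tested. Scgb1a1, the club cell secretory protein, had the highest level of any gene tested in these lists. It was at 9405, 12155 and 2414 FPKM in epithelial cells and 2304, 7238 and 798 in total lung. It was lowest in WT10 and WT13 and highest in WT9 and WT12, so the groups overlapped and its difference of 1.46 ± 0.86 did not pass (limma adjusted p = 0.173). Without WT12 the difference was 2.26 (adjusted p = 0.0429). The secretoglobin Scgb3a2 showed the same order of libraries, at 114, 316 and 43.8 FPKM against 42.5, 125 and 11.2 (limma adjusted p = 0.183). Bpifa1, a secreted airway defence protein, was at 51.5, 197 and 4.41 FPKM against 3.77, 19.1 and 0.961 (limma adjusted p = 0.105), and passed without WT10 (4.15, adjusted p = 0.0111). Cyp2f2, a cytochrome P450 of club cells, was at 267, 422 and 168 FPKM against 33.1, 101 and 21.6 and was higher in every epithelial library (difference 2.64 ± 0.56, limma adjusted p = 0.0045). Sec14l3, a lipid-binding protein of airway cells, was at 264, 497 and 217 FPKM against 27.1, 57.5 and 42.9 (difference 2.88 ± 0.36). Haptoglobin (Hp) was at 539.6, 463 and 550.0 FPKM against 71.1, 121 and 72.9 (difference 2.58 ± 0.20) and lacked the peak in WT9. Fmo2, a flavin monooxygenase, was the member that was lower, at 34.3, 22.3 and 41.5 FPKM against 85.3, 71.7 and 48.8 (difference -1.05 ± 0.27).

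Ciliated cell genes were higher without exception among those tested. All 15 in the table, of 24 listed, rose without overlap, with a median difference of 2.34. Foxj1, the master regulator of motile cilia, was at 31.4, 84 and 20.9 FPKM against 2.62, 7.28 and 4.18 (difference 2.87 ± 0.51, limma adjusted p = 0.0019). Dynlrb2, a dynein light chain, was at 124, 175 and 79.2 FPKM against 12.2, 23.7 and 11.4 (difference 2.92 ± 0.34), and Dnali1, an axonemal dynein chain, was at 10.4, 31.9 and 9.14 FPKM against 0.876, 2.65 and 1.08 (difference 2.69 ± 0.47). The summed level of the list was 1040% of the total lung mean in WT9, 477% in WT8 and 326% in WT10. Genes of rarer airway cells were mostly below the filter: 12 of 19 basal, neuroendocrine and tuft cell genes were, and of the 7 tested 3 were higher and 1 was lower, or 2 without WT10 and 0 without WT11 or WT13. Over all genes tested 31.9% were higher and 31.6% were lower. Cftr, the chloride channel mutated in cystic fibrosis, was at 17.4, 11.1 and 17.8 FPKM against 1.09, 2.29 and 1.68 (difference 2.61 ± 0.24). The basal keratin Krt5 was at 0.0565, 2.19 and 3.96 FPKM against 0.0755, 0.093 and 0.373 (limma adjusted p = 0.0929), so that it was near 0 in WT8 but above 2 FPKM in WT9 and WT10, and it passed without WT8 (1.76, limma adjusted p = 0.00244).

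Most transcription factors of the epithelial lineage were higher in epithelial cells. Of 33 listed, 31 were tested, 24 were higher and 4 were lower. Irx1, an Iroquois homeodomain factor, was at 138, 143 and 201 FPKM in epithelial cells against 16, 25.3 and 17.4 in total lung (difference 2.98 ± 0.21, limma adjusted p = 2.89e-05), and its neighbour in the family Irx2 was at 74.4, 71.1 and 82.3 FPKM against 7.66, 12.3 and 7.66 (difference 2.94 ± 0.18). Foxa2, a forkhead factor of lung and gut endoderm, was at 37.7, 35 and 29.8 FPKM against 4.14, 4.57 and 2.74 (difference 2.88 ± 0.18). Foxa1 (2.73 ± 0.17), Elf5 (2.71 ± 0.26), Elf3 (2.62 ± 0.20) and Grhl2 (2.57 ± 0.18), factors that maintain epithelial identity, were higher to a similar extent. The lower members were Zeb2, Zeb1, Foxp1 and Tbx3. Zeb2, which represses Cdh1, was at 1.89, 2.49 and 2.60 FPKM against 23.6, 22.7 and 22.3 (difference -2.85 ± 0.14, limma adjusted p = 1.49e-05). Foxp1, which is also a lymphocyte factor, was at 23.4, 26.3 and 38.2 FPKM against 71.4, 68.7 and 78.4 (difference -1.31 ± 0.18).

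Genes of cell adhesion and of the keratin skeleton followed Epcam. Of 40 adhesion and junction genes, 35 were tested, 34 were higher and none was lower, with a median difference of 2.08. Cldn3, a claudin of tight junctions, was at 286, 355 and 351 FPKM against 36.2, 52 and 31.8 (difference 3.04 ± 0.19). Cldn7, another claudin, was at 77.4, 89.6 and 86.9 FPKM against 7.97, 13 and 8.51 (difference 3.01 ± 0.18). Esrp2, which drives epithelial splice forms, was at 32.6, 28.5 and 34.9 FPKM against 2.92, 4.97 and 3.97 (difference 2.75 ± 0.18), and the membrane protease Prss8, an activator of the epithelial sodium channel, had a difference of 2.81 ± 0.12. The groups did not overlap in any of these. The plakophilin gene Pkp3 was the 1 that did not pass, at 15.4, 11.8 and 9.97 FPKM against 16, 13.6 and 14.6, and passed as lower without WT8 (-0.41, limma adjusted p = 0.0482). Of 8 keratins tested, 6 were higher and 1, Krt79, was lower. Krt8 and its partner Krt18 are the simple epithelial keratins: Krt8 was at 211, 263 and 236 FPKM against 22.2, 34.3 and 22.1, and Krt18 at 178, 196 and 162 FPKM against 20.0, 27.3 and 20.2 (difference 2.94 ± 0.14). Krt19 had a smaller difference of 1.83 ± 0.20. Krt79, which was also listed as an alveolar macrophage gene, was at 0.375, 1.43 and 0.0352 FPKM against 3.55, 6.0 and 4.2.

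Channels and pumps that move salt and water across the epithelium were enriched. Of 23 listed, 20 were tested, 16 were higher and 1 was lower. Scnn1a, the alpha subunit of the epithelial sodium channel, was at 131, 129 and 140.3 FPKM against 13.9, 24.9 and 19.3 (difference 2.76 ± 0.19, limma adjusted p = 2.87e-05). Atp1b1, a subunit of the sodium-potassium pump, was at 566, 475 and 673 FPKM against 75.4, 105 and 72.7 (difference 2.75 ± 0.18). Slc26a9, a chloride transporter, was at 97.2, 56.3 and 85.1 FPKM against 7.55, 11.1 and 6.85 (difference 3.07 ± 0.24). The amino acid transporter Slc6a14 (2.93 ± 0.23) and the sodium-potassium-chloride cotransporter Slc12a2 (2.74 ± 0.18) were higher too. The exception was Aqp1, the water channel of capillary endothelium, at 52.1, 25.6 and 60.8 FPKM against 75, 95.3 and 138 (difference -1.18 ± 0.34, limma adjusted p = 0.0179). Its adjusted p was 0.0579 without WT13, which held the most.

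Growth factor ligand and receptor genes were mixed. Of 40 listed, 34 were tested, 21 were higher and 5 were lower, or 3 without WT8, WT11 or WT12. Fgfr2, the receptor for the mesenchymal ligands FGF7 and FGF10, was at 258, 187 and 256 FPKM against 32.2, 44.6 and 23.1 (difference 2.81 ± 0.24, limma adjusted p = 5.61e-05). Met, the receptor for hepatocyte growth factor, was at 61.3, 41.1 and 54.3 FPKM against 5.40, 9.35 and 5.38 (difference 2.81 ± 0.23). Erbb3, a partner of other ERBB receptors, was at 30.0, 24 and 29.6 FPKM against 3.24, 5.20 and 2.92 (difference 2.62 ± 0.20). These receptors were lowest in WT9 among the epithelial libraries. The ligand genes included Areg, or amphiregulin, an EGFR ligand, at 32.3, 85.3 and 64.1 FPKM against 8.33, 11.1 and 9.19 (difference 2.45 ± 0.32). Shh, which signals to lung mesenchyme, was at 6.48, 6.57 and 5.55 FPKM against 0.72, 0.841 and 0.512 (difference 2.09 ± 0.16), and Wnt7b was at 4.52, 4.58 and 4.72 FPKM against 0.449, 0.467 and 0.42 (difference 1.96 ± 0.15). The largest falls of the list were in Fgfr1 (-1.53 ± 0.29), a receptor that mesenchymal cells use, and Notch2 (-1.06 ± 0.12).

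Of 31 integrin and basement membrane genes, 30 were tested, 15 were higher and 7 were lower, beside 31.9% and 31.6% over all genes tested. Laminin chains that anchor epithelium were higher. Lamb3 was at 81, 57.6 and 83.4 FPKM against 10.7, 15.1 and 9.14 (difference 2.58 ± 0.21, limma adjusted p = 4.76e-05) and Lama3 at 11.8, 8.42 and 11.8 FPKM against 1.25, 2.06 and 1.77 (difference 2.11 ± 0.19). Lama2, a laminin chain of mesenchymal cells, was lower, at 1.61, 0.558 and 2.76 FPKM against 10.8, 14.9 and 4.91 (difference -2.06 ± 0.43, limma adjusted p = 0.00436). Of 30 semaphorin, ephrin and axon guidance genes, 28 were tested, 10 were higher and 8 were lower, or 5 without WT9 or WT11, so the shares were near the 31.9% and 31.6% of all genes tested. The plexin Plxnb1, a semaphorin receptor, was at 36.5, 41.7 and 41.6 FPKM against 5.08, 6.41 and 4.47 (difference 2.70 ± 0.14), and Sema3b, a secreted semaphorin, at 26.7, 23.4 and 29.4 FPKM against 4.70, 6.41 and 4.52 (difference 2.16 ± 0.16). Plxnb2 (1.95 ± 0.15) and Plxna2 (1.89 ± 0.23) were also higher. Plxnd1, a plexin of endothelial cells and T cells, was lower (-1.05 ± 0.18), as was Sema4b (-0.93 ± 0.16).

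Lipid synthesis genes, some of which supply surfactant, were enriched with few exceptions. Of 29 listed, 28 were tested, 22 were higher and 5 were lower, or 3 without WT10. Elovl1, which elongates saturated fatty acids, was at 1232, 844 and 1303 FPKM against 157, 218 and 128 (difference 2.75 ± 0.23). Fasn, or fatty acid synthase, was at 282, 224 and 319 FPKM against 39.8, 65.8 and 39.8 (difference 2.51 ± 0.22, limma adjusted p = 6.46e-05). The isoprenoid enzyme Fdps (2.23 ± 0.19) and the glycerol-3-phosphate acyltransferase Gpam (2.15 ± 0.21) rose too. Dgat1, which makes triglyceride, went the other way at 21.5, 21.9 and 13.4 FPKM against 66.8, 93.9 and 71 (difference -1.99 ± 0.21, adjusted p = 0.000156 by limma). Elovl6, another fatty acid elongase, was lower too (-1.05 ± 0.19).

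Of 32 innate defence and complement genes, 22 were tested, 7 were higher and 8 were lower, again near the shares over all genes tested. Wfdc2, a secreted protease inhibitor family protein, was at 2737, 2718 and 2975 FPKM against 371, 452 and 257 (difference 3.0 ± 0.20, limma adjusted p = 2.64e-05). Muc1, a membrane mucin, was at 499, 506 and 621 FPKM against 68.5, 98.3 and 56.1 (difference 2.88 ± 0.20), and Cxcl17, a mucosal chemokine, was at 45.9, 96 and 46.9 FPKM against 4.72, 11.7 and 6.44 (difference 2.88 ± 0.37). Lcn2, the siderophore-binding lipocalin, was at 733, 519.8 and 801 FPKM against 106, 192 and 83.8 (difference 2.48 ± 0.30). The interleukin 1 antagonist Il1rn was low in epithelial cells, at 0.932, 2.22 and 0.0439 FPKM against 51.6, 86.8 and 28.5 (difference -4.79 ± 0.49). Among 23 detoxification and antioxidant enzymes tested, of 27 listed, 13 were higher and 5 were lower, again 3 without WT8, WT11 or WT12. Cyp2s1, a cytochrome P450, was at 79.1, 188 and 38.7 FPKM against 7.84, 14.9 and 9.79 (difference 2.88 ± 0.52), again with the highest value in WT9. Gclc, which makes the precursor of glutathione, was at 199, 177 and 215 FPKM against 30.1, 45.2 and 32.3 (difference 2.44 ± 0.16), and catalase (Cat) at 463, 339.8 and 455 FPKM against 74.8, 101 and 73.9 (difference 2.32 ± 0.17). Sod3, the extracellular superoxide dismutase, was lower at 12.1, 12.9 and 40.3 FPKM against 145, 93.3 and 60.3 (difference -2.27 ± 0.48), as was the alcohol dehydrogenase Adh1 (-2.50 ± 0.46).

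MHC class II genes were lower in epithelial cells but far from absent. Of 11 listed, 9 were tested and 8 were lower, with a median difference of -1.30. Cd74, the invariant chain, was at 2827, 2852 and 3433 FPKM against 4630.1, 4011 and 5779.9 (difference -0.65 ± 0.17, adjusted p = 0.0105 by limma). H2-Aa was at 1013, 842 and 1065 FPKM against 1600.5, 1333 and 2009 (difference -0.75 ± 0.17), and H2-Eb1 at 322, 314 and 331 FPKM against 926, 768 and 1221 (difference -1.56 ± 0.16). The summed level of the 9 genes in the epithelial libraries was 49.9% to 60.4% of the total lung mean, whereas that of 15 pan-leukocyte genes was 8.38% to 12.4% and that of 17 B cell genes was 6.51% to 12.8%. Among these class II genes, H2-Ob, a chain of the H2-O modulator of B cells, had the largest fall, at 8.93, 16.2 and 16.5 FPKM against 161, 113 and 182 (difference -3.38 ± 0.26), next to its partner H2-Oa (-3.37 ± 0.16). By limma, Cd74 and H2-Aa lost their calls after quantile normalization (adjusted p = 0.191 and 0.282) and in a fit of all 10 groups of the study (0.124 and 0.0955). Alveolar type II cells are known to express MHC class II. How much of the signal came from them and how much from the residual leukocytes was not tested.

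**Figure D3:**
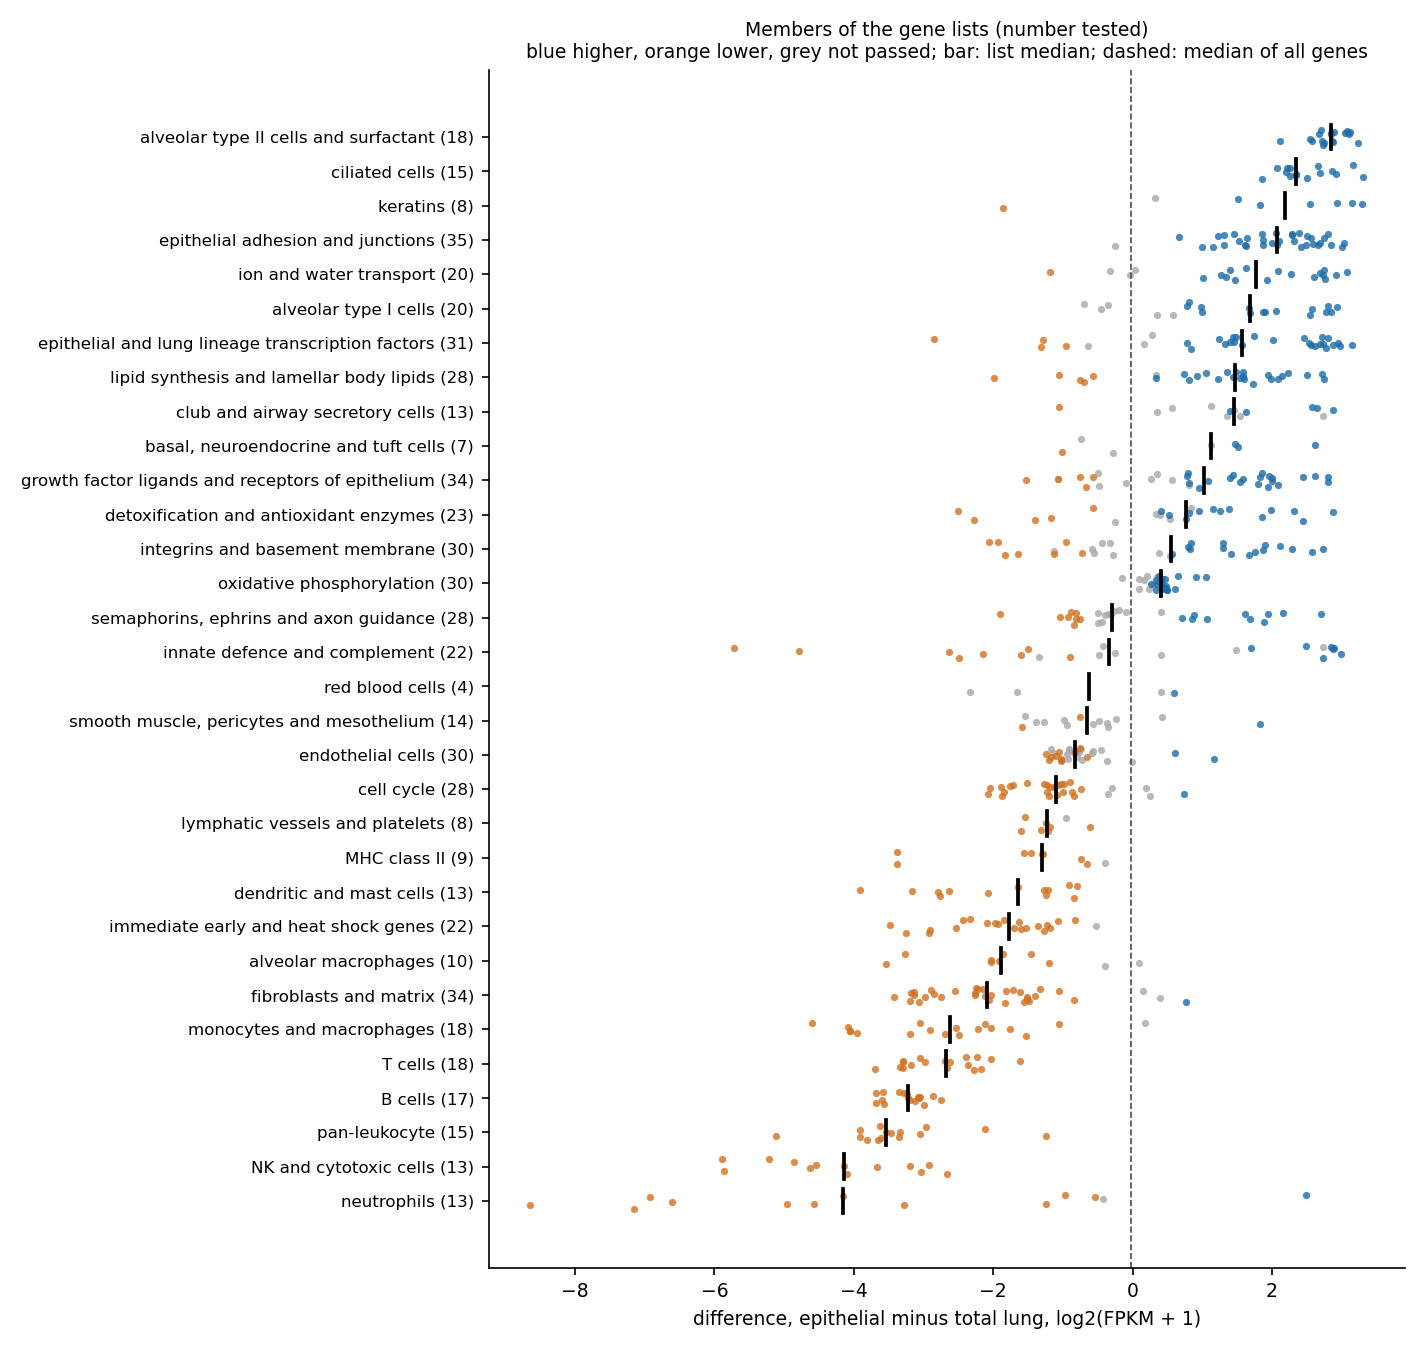
Differences between WT epithelial and WT total lung cells, on the log2(FPKM + 1) scale, for the tested members of 32 gene lists, 1 point per gene. Lists are ordered by their median (black bar), and the dashed line is the median of all genes tested, -0.02. Alveolar type II genes sit at the top with a narrow spread, and NK cell and neutrophil genes at the bottom with a wide one.

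The 12 genes of largest fall by the naming rule are known from leukocytes. Il1b, which encodes interleukin 1 beta, was at 3.04, 1.81 and 0.301 FPKM in epithelial cells against 151, 148 and 237 in total lung (difference -6.16 ± 0.40, limma adjusted p = 2.49e-05). Gzma, a granzyme of NK and T cells, was at 9.15, 8.48 and 1.09 FPKM against 397, 318 and 327 (difference -5.89 ± 0.56). Ccl5, a chemokine of cytotoxic cells, was at 22.2, 22.1 and 3.16 FPKM against 991, 766 and 581 (difference -5.87 ± 0.63). In these 3 genes WT10 held the least of the epithelial libraries. The chemokines Cxcl2 (-5.71 ± 0.52), Ccl3 (-5.69 ± 0.18) and Ccl4 (-5.42 ± 0.19) were lower by more than 5 as well. Ccl3 was at 7.58, 4.63 and 4.38 FPKM against 323, 329.7 and 333. Clec4d, a lectin receptor of myeloid cells, was at 0.496, 0.245 and 0.0316 FPKM against 66.7, 84.1 and 57.5 (difference -5.81 ± 0.20). The others were Nkg7 (-5.22 ± 0.37), a granule protein of cytotoxic cells, Ifng (-5.21 ± 0.44), which encodes interferon gamma, the adaptor Tyrobp (-5.12 ± 0.55), the lipase Pla2g7 (-4.97 ± 0.37) and Csf3r (-4.95 ± 0.25), the receptor for G-CSF. Genes with a 0 in any of the 6 libraries were outside that rule, among them S100a9, a calcium-binding protein of neutrophils, which had the largest fall of any gene tested, at 3.42, 2.59 and 0 FPKM against 925, 1109.6 and 979.6 (difference -8.64 ± 0.50, limma adjusted p = 1.9e-05).

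Nearly all leukocyte genes were lower in epithelial cells. All 18 T cell genes, all 17 B cell genes, all 15 pan-leukocyte genes and all 13 NK and cytotoxic genes tested were lower, without overlap. In the epithelial libraries the summed level of NK and cytotoxic genes was 0.988% to 3.34% of the total lung mean and that of T cell genes 8.55% to 22.7%. The T cell sum was highest in WT9, as was the B cell sum. Cd2, an adhesion receptor of T and NK cells, was at 9.30, 16.8 and 9.58 FPKM against 122, 112 and 133 (difference -3.3 ± 0.21), and Cd3e, a chain of the T cell receptor complex, at 2.06, 9.28 and 1.27 FPKM against 39.6, 39.3 and 40.0 (difference -3.29 ± 0.50). Cd79a, a chain of the B cell receptor, was at 23, 45.1 and 42.4 FPKM against 570.4, 325 and 547 (difference -3.69 ± 0.30). Of 13 neutrophil genes tested, 11 were lower. Lcn2, which was higher, made up most of their sum in epithelial cells: the sum was 29.7% of that in total lung with Lcn2 and 4.63% without it. Of 18 monocyte and macrophage genes 17 were lower, and the sum was 38.5% of that in total lung with Apoe and 12.7% without it. Apoe, the lipid carrier, did not pass, at 478, 328 and 599.6 FPKM against 409.8, 491 and 321. With genes at 0 in any of the 6 libraries left out, 5 neutrophil genes and 11 monocyte and macrophage genes were called lower. C1qa, a complement C1q chain of macrophages, was at 1.45, 2.68 and 1.14 FPKM against 40.0, 54.1 and 37.7 (difference -4.05 ± 0.24), and the macrophage receptor Marco at 0.168, 1.60 and 0.0936 FPKM against 5.71, 6.77 and 3.40 (difference -2.04 ± 0.38). Of 10 alveolar macrophage genes tested 8 were lower, and Fabp4 and Pparg did not pass. The alveolar macrophage sum was 42.2% of the total lung mean in WT9, beside 23.6% in WT8 and 17.8% in WT10. It was 28.1, 50.4 and 21.3 FPKM in WT8, WT9 and WT10. Car4, which was also listed as an endothelial gene, made up 10.1, 16.2 and 8.15 FPKM of these sums. Among the 13 dendritic and mast cell genes tested, all of which were lower, Irf8, a factor of dendritic cells and B cells, was at 4.74, 5.16 and 5.77 FPKM against 87.5, 83.6 and 107 (difference -3.91 ± 0.13), and the homing receptor Ccr7 at 26, 53.5 and 33.5 FPKM against 325, 248 and 451 (difference -3.16 ± 0.29).

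Endothelial genes remained at a sizeable level in the sorted cells. Of 30 tested, 10 were lower, 2 were higher and 18 did not pass, with a median difference of -0.83. Without WT13, 5 were lower. The share that was lower was near the 31.6% of all genes tested. For 16 of the 30, every epithelial library lay below every total lung library, beside 35.6% of all genes tested. Pecam1, the adhesion molecule of endothelial cells and platelets, was at 42.8, 27.4 and 46.4 FPKM against 77.9, 75.4 and 129 (difference -1.24 ± 0.26, limma adjusted p = 0.00431). Tie1, an endothelial receptor, was at 17, 8.34 and 16.7 FPKM against 24.2, 26.4 and 48.6 (difference -1.17 ± 0.33). The claudin of blood vessels, Cldn5, was at 38.1, 23.3 and 41.1 FPKM against 54.2, 57.4 and 119.6 (difference -1.09 ± 0.33, limma adjusted p = 0.0222), and its adjusted p was 0.0578 without WT9. In these genes WT9 was the lowest epithelial library and WT13 by far the highest total lung library. The summed level of the list showed the same, with 72.3%, 40.6% and 73.3% of the total lung mean in WT8, WT9 and WT10, and 73.9%, 75% and 151% in WT11, WT12 and WT13. Defining endothelial transcripts were thus present in every epithelial library, and their part in the results for genes that endothelium shares with type I cells, such as Cav1, was not tested. Esam, an adhesion molecule, went the other way, at 99.99, 78.2 and 115 FPKM against 33.9, 36.4 and 60.8 (difference 1.17 ± 0.24, limma adjusted p = 0.00368). The other higher gene was the peptidase Ece1 (0.60 ± 0.22, limma adjusted p = 0.0418), and only 1 endothelial gene was higher without WT8, WT10, WT11 or WT12.

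Most fibroblast and matrix genes were lower in epithelial cells. Of 34 tested, 31 were lower, 1 was higher and 2 did not pass, with a median difference of -2.09. Col1a1, a chain of type I collagen, was at 10.4, 6.02 and 19.5 FPKM against 157, 206 and 60.2 (difference -3.42 ± 0.52, limma adjusted p = 0.000894). The matrix protein gene Fbln1 was at 7.09, 2.68 and 10.8 FPKM against 69.5, 97.1 and 33.8 (difference -3.14 ± 0.50), and Pi16, a marker of adventitial fibroblasts, at 4.82, 6.32 and 5.46 FPKM against 58, 91.4 and 36.1 (difference -3.17 ± 0.30). WT10 held the most Col1a1 of the epithelial libraries and WT13 the least of the total lung libraries. Npnt, or nephronectin, was the higher member, at 49.3, 34.9 and 68.2 FPKM against 38.1, 26.2 and 23 (difference 0.76 ± 0.27, limma adjusted p = 0.0373), and no member of the list was higher without WT8, WT10, WT12 or WT13. Sparc and Col6a1 did not pass: Sparc was at 248, 203 and 302 FPKM against 232, 286 and 165 and Col6a1 at 91.1, 71.3 and 119 FPKM against 86.2, 96.5 and 40.8.

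A single library decided the smooth muscle genes. Acta2, or smooth muscle actin, was at 8.85, 5.70 and 133 FPKM in epithelial cells against 96.5, 48.2 and 44.2 in total lung, so that WT10 exceeded every total lung library while WT8 and WT9 were far below them. Myh11, the smooth muscle myosin, was at 0.965, 1.29 and 23.3 FPKM against 18.1, 8.22 and 7.61, and Tagln, or transgelin, at 8.38, 7.87 and 78.6 FPKM against 85.2, 36.8 and 35.2. Of 14 smooth muscle, pericyte and mesothelial genes tested, 1 was higher, the keratin Krt19, and 2 were lower. Over all genes tested 31.9% were higher and 31.6% were lower. The lower genes of this list numbered 8 without WT10, and 1 without WT9, WT11 or WT13. Without WT10 Acta2 passed as lower (-2.89, limma adjusted p = 0.000762). Pdgfrb, the pericyte receptor, was lower at 2.70, 0.786 and 3.49 FPKM against 9.64, 9.40 and 6.28 (difference -1.59 ± 0.35, limma adjusted p = 0.00541). Of 4 red blood cell genes tested, 1 was higher, or 2 without WT13, none was lower and 3 did not pass in the main fit. The higher gene was Fech, at 15.2, 14.7 and 19.1 FPKM against 10.2, 10.3 and 10.8 (difference 0.59 ± 0.13, limma adjusted p = 0.00591). Alas2, unlike Fech, set WT13 apart. Alas2, the erythroid enzyme of heme synthesis, was at 2.80, 1.66 and 14.9 FPKM against 9.07, 18.4 and 105 (difference -2.34 ± 0.95, limma adjusted p = 0.0618). It passed as lower without WT10 (-3.11, adjusted p = 0.0236 by limma) and without WT11 (-3.06, adjusted p = 0.0322).

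**Figure D4:**
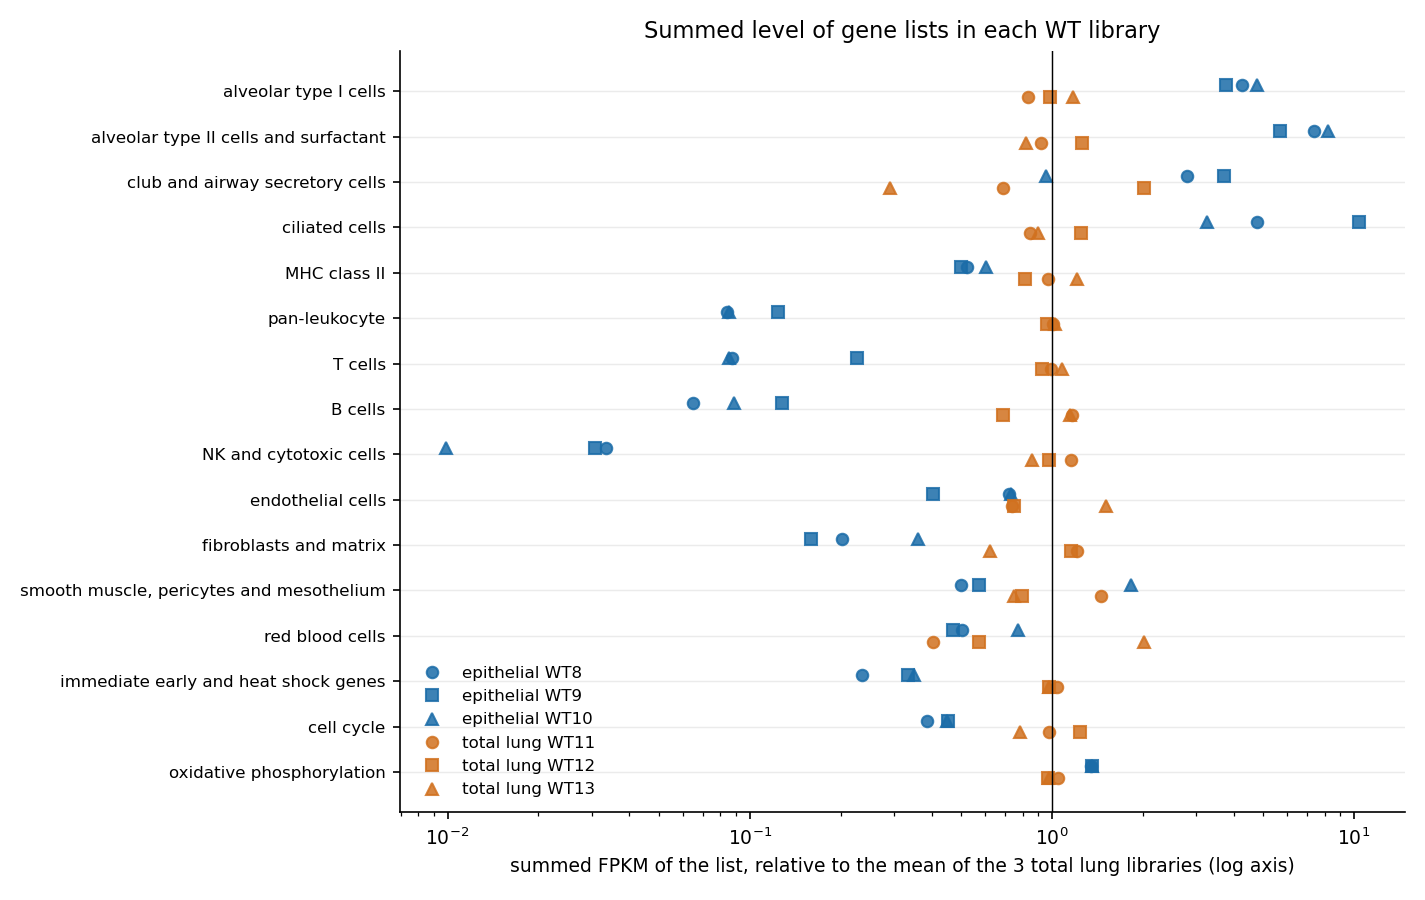
Summed FPKM of 16 gene lists in each WT library, relative to the mean of the 3 total lung libraries (log axis, 1 symbol per library). The 3 epithelial libraries (blue) lie close together for alveolar genes, MHC class II and oxidative phosphorylation, but WT9 stands apart in ciliated and T cell genes and WT10 in smooth muscle genes, and WT13 has the highest endothelial and red blood cell sums.

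Most immediate early and heat shock genes were lower in the sorted cells, and dissociation is known to induce immediate early genes. Of 24 listed, 22 were tested, 21 were lower and none was higher, with a median difference of -1.77. Hspa1a, listed at 0 in all total lung libraries, was not tested. Klf2, a shear-responsive factor that is also high in lymphocytes, was at 35, 55.3 and 67.5 FPKM against 589.7, 489 and 670.4 (difference -3.48 ± 0.24, limma adjusted p = 2.79e-05). Nr4a1, an orphan nuclear receptor, was at 71.5, 133 and 105 FPKM against 817, 738 and 716 (difference -2.90 ± 0.21), and the AP-1 factor Junb at 160.1, 196 and 167 FPKM against 1259, 1014 and 807 (difference -2.53 ± 0.17). The co-chaperone Dnajb1 was at 39, 71.5 and 91.5 FPKM against 445, 440.0 and 586 (difference -2.92 ± 0.29). WT8 was the lowest library for each of these genes. The sort is confounded with the cell composition here, so handling and cell type cannot be told apart.

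Most cell cycle genes were lower in epithelial cells. Of 30 listed, 28 were tested and 23 were lower, or 13 with a filter of 5 FPKM, which tests fewer genes. The member that was higher was the checkpoint kinase Bub1 (0.74 ± 0.21, limma adjusted p = 0.0168), which lost its call without WT11 (0.0649) or WT13 (0.0601). Top2a, which resolves chromosomes before division, was at 0.94, 1.81 and 2.70 FPKM against 7.87, 13.6 and 6.59 (difference -1.87 ± 0.32, limma adjusted p = 0.00152). Mcm3, a subunit of the replicative helicase, was at 2.66, 4.14 and 3.36 FPKM against 14.9, 18.5 and 12.4 (difference -1.89 ± 0.19). The centromeric histone gene Cenpa was at 4.88, 6.51 and 3.71 FPKM against 24.7, 24.9 and 20.7 (difference -2.04 ± 0.19). Oxidative phosphorylation genes were mostly higher by a small amount: 22 of 30 were higher, none was lower and the median difference was 0.41. Ndufa4 was at 312, 333 and 339 FPKM against 162, 153 and 158 (difference 1.05 ± 0.08, limma adjusted p = 4.62e-05), and Sdhc, a subunit of succinate dehydrogenase, at 90.0, 86.2 and 95.1 FPKM against 49.6, 46.5 and 46.3 (difference 0.91 ± 0.09). The libraries of each group lay close together for both genes.

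The other WT preparations of the study show where these genes are otherwise found. Of the 1962 genes that were higher by at least 1, 1835 (93.5%) had their highest mean level in epithelial cells among the 5 WT preparations, and 81 had it in macrophages, 35 in neutrophils and 11 in monocytes. Over all genes tested, 38.0% were highest in epithelial cells. Of the 1931 genes that were lower by at least 1, 816 (42.3%) were highest in total lung itself. Neutrophils were highest for 445 (23%), monocytes for 371 (19.2%) and macrophages for 299 (15.5%). Over all genes tested these shares were 22.9%, 10.7%, 12.5% and 15.9%, so that of macrophages was near its share over all genes. Total lung cannot be highest for the first group nor epithelial cells for the second, since the calls fix that order. The values behind the calls also enter the ranking. That favours epithelial cells in the first group and total lung in the second, so 93.5% and 42.3% are partly built in.

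**Figure D5:**
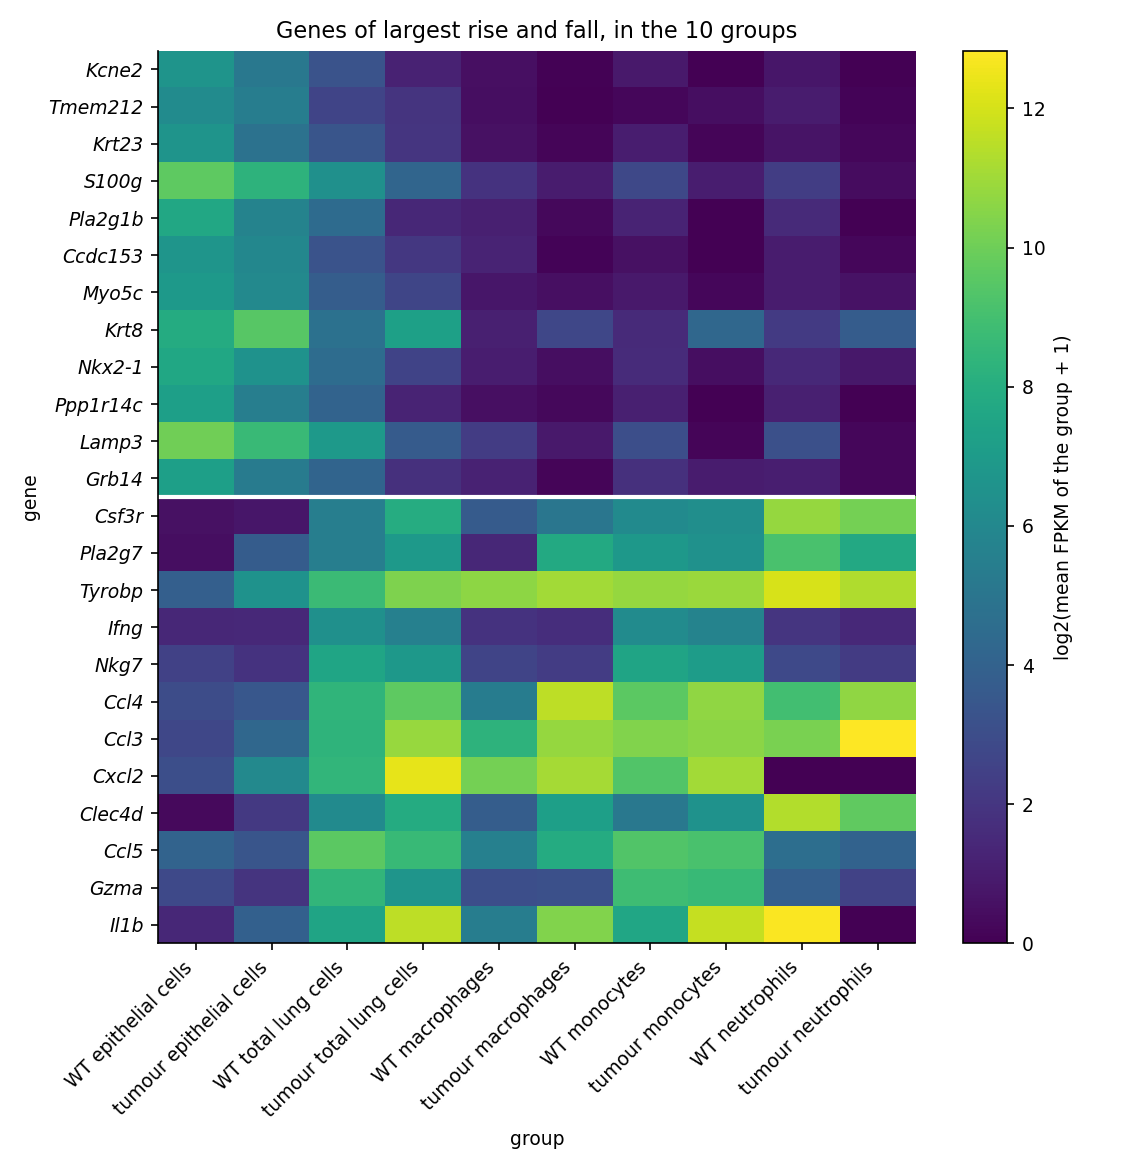
Mean level, as log2(mean FPKM + 1), of the 12 genes of largest rise (above the white line) and the 12 of largest fall (below it) in the 10 groups of the study. The rises are brightest in the 2 epithelial groups, and Krt8 is also bright in tumour total lung. Cxcl2 in neutrophils of both kinds and Il1b in tumour neutrophils are listed at 0, which can be a failed estimate.

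Whether the enrichment of epithelium over total lung was the same in tumour lung was tested by an interaction over 12 libraries. Tumour lungs were taken at day 20-25 after HKP1 cells were injected, and gave 3 epithelial libraries (Tum9, Tum10 and Tum11) and 3 of total lung (Tum12, Tum13 and Tum14). The labels do not say what share of Epcam+ cells there were HKP1 cells. Of 12289 genes tested, the epithelial-minus-total difference was larger in WT lung for 587 (4.78%) and larger in tumour lung for 698 (5.68%) at an adjusted p under 0.05 by limma. None of the 12 genes of largest rise passed this test, with interactions between -2.20 and 1.0. Of the 12 genes of largest fall Csf3r passed (2.16 ± 0.39, limma adjusted p = 0.00883), though not with a pseudocount of 0.1 (1.57, adjusted p = 0.292). Both sets were picked by their WT difference, which is itself a part of the interaction. Not passing does not show that the difference was the same in tumour lung. No alveolar type II or ciliated gene was larger in tumour lung, although 2 of 17 type II genes were larger in WT lung. One of them, Fabp5, a fatty acid-binding protein, was at 645, 518 and 781 FPKM in epithelial cells against 97.4, 134 and 70.1 in total lung in WT lung, and at 248, 445 and 122 FPKM against 505, 193 and 502 in tumour lung (3.32 ± 0.66, limma adjusted p = 0.0125).

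Among the lists, cell cycle, matrix and integrin genes had the highest counts toward tumour lung. The difference was larger in tumour lung for 11 of 28 cell cycle genes, 8 of 34 fibroblast and matrix genes and 7 of 30 integrin and basement membrane genes. Over all genes tested that share was 5.68%. Top2a was at 21.8, 11.9 and 16.2 FPKM in tumour epithelial cells against 19.6, 16.7 and 12.6 in tumour total lung (-1.88 ± 0.43, limma adjusted p = 0.0218), where the groups overlapped. Top2a lost its call without Tum9 (adjusted p = 0.0553) and without Tum14 (0.0585). Itga2, a collagen-binding integrin, was at 0.894, 0.531 and 0.714 FPKM against 4.22, 4.59 and 4.2 in WT lung and at 21.5, 10.0 and 28.4 FPKM against 6.49, 6.10 and 3.46 in tumour lung (-3.29 ± 0.44, limma adjusted p = 0.00318). Tum10 was the lowest tumour epithelial library for both genes. In the other direction stood 7 of 18 monocyte and macrophage genes and 4 of 13 neutrophil genes, whose difference was larger, that is less negative, in WT lung. Over all genes tested that share was 4.78%. The interaction counts of the lists were not run with single libraries left out. The interaction counts over all genes depended on single libraries. Those larger in WT and in tumour lung were 954 and 1414 without Tum10, 332 and 240 without Tum9, 362 and 380 without Tum11, 424 and 408 without Tum12, 282 and 271 without Tum14, 359 and 368 without WT8, 275 and 262 without WT11, 380 and 337 without WT12, and 361 and 487 without WT13.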

How the data were processed

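The deposited table holds FPKM per gene, which the authors made with CASAVA 1.8.2, TopHat2, Cufflinks and Cuffdiff on mm10 (GRCm38), per the submitters' processing notes. Their roles, settings and annotation are not given in the sources used here, and depth cannot be had from FPKM. Columns were matched to libraries by title and libraries grouped by their cell type and source labels. Genes that reached 1 FPKM in 2 or more libraries of a comparison were tested as log2(FPKM + 1) with limma 3.58.1 in R 4.3.3 (intensity trend, empirical Bayes, Benjamini-Hochberg, threshold 0.05), without genes listed at 0 in a whole group. A difference is on that scale and understates the change of low genes. The test was checked on a single simulated draw per comparison, with known differences planted in genes above the lowest levels. In the WT comparison 67% of 100 planted differences of 1 and 92% of 100 of 2 were recovered, with 10 false calls over 11459 genes. In the interaction, with as many planted among 11740 genes, these were 51% and 92%, with 7 false calls. The share of genes called in the data was far larger than the share planted, so these rates need not hold for the data. A gene that did not pass may still differ by 1.

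The comparison, its 32 gene lists (755 entries, 684 in the table, 628 tested) and the naming rule were chosen with earlier results of these data known. The rule took the 12 largest rises and falls among called genes whose groups did not overlap, with no 0 in any library and a higher mean of at least 10 FPKM, leaving out predicted genes, pseudogenes, small RNAs, olfactory receptors, ribosomal proteins and antigen receptor segments. It added the 5 largest changes of each list at a mean of at least 5 FPKM, the 6 most abundant alveolar and club genes per list, the sort markers and the 5 largest interactions each way. Members named outside it, for not passing, for going against their list, for a difference in tumour lung or as further examples, were chosen after their values were seen. So were the promoters, the motifs and the list sums without Lcn2 or Apoe.

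Alternatives were a pseudocount of 0.1 or 5, no filter or one of 5 FPKM, quantile normalization, upper-quartile scaling, genes at 0 kept or left out, robust empirical Bayes, a fit of all 10 groups and each library left out. Positions are from GENCODE M21 and promoters from RefSeq, both GRCm38. Figures were drawn with matplotlib 3.10.9 in Python 3.11.15. Some genes are not reported here.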

Additional observations from a re-analysis of the deposited data

Results flagged for a closer look

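A gene was picked out here when its epithelial-minus-total difference in WT lung differed from that in tumour lung by the interaction test, and the 5 largest such differences each way are given, as the WT difference minus the tumour difference on the log2(FPKM + 1) scale. All adjusted p-values are from limma over 12289 genes.

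In 4 of the first 5, tumour total lung held far more of the transcript than tumour epithelial cells, while WT lung showed no such gap. Il23a, a subunit of interleukin 23, was at 0.162, 0.252 and 0.721 FPKM in epithelial cells and 0.324, 0.444 and 0.214 in total lung of WT mice, and at 1.54, 0.558 and 1.52 and 59.6, 122 and 131 FPKM in tumour lung (5.57, adjusted p = 0.000325 by limma). Arg1, arginase 1 of myeloid cells, was at 5.81, 41 and 7.31 and 5.36, 11.2 and 5.45 FPKM in WT lung and at 12.8, 5.0 and 1.70 and 93.7, 71.1 and 86.4 FPKM in tumour lung (4.55, adjusted p = 0.0154 by limma). Among the WT epithelial libraries WT9 stood well above the others. The ectonucleotidase Entpd3 differed by 4.47 and the receptor Gpr84 by 3.88. Syngr1, a vesicle membrane protein, was higher in WT epithelial cells, at 26.5, 25.7 and 40.3 FPKM against 3.27, 4.65 and 2.83, but not in tumour lung, at 10.7, 21.4 and 8.62 FPKM against 28.5, 19.5 and 28.9 (3.73).

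The other 5 had a lower mean in epithelial cells than in total lung of WT mice and a higher mean in epithelial cells than in total lung of tumour mice. Scara3, a scavenger receptor, was at 0.654, 0.847 and 2.11 and 7.28, 9.11 and 4.22 FPKM in WT lung and at 49.7, 28.7 and 73.1 and 6.56, 8.58 and 8.48 FPKM in tumour lung (-4.29, adjusted p = 0.00257 by limma). Plac8 was at 19.5, 15.4 and 25.3 and 182, 145 and 176 FPKM in WT lung and at 413, 193 and 758 and 208, 248 and 225 FPKM in tumour lung (-3.81, adjusted p = 0.00373 by limma). Pamr1 differed by -4.18, the growth factor receptor Fgfr4 by -4.02 and the protease inhibitor Serpinb1a by -3.77. In tumour epithelial cells Tum10 was the lowest library for each of these 5 genes. Fgfr4 lost its call without Tum9 (adjusted p = 0.0537), without Tum14 (0.0544) and without WT11 (0.0516).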

How the results depend on the processing

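No paired analysis was possible because the epithelial libraries are numbered 8 to 10 and the total lung libraries 11 to 13, so the groups compared share no number. These numbers run on from 1 WT preparation to the next. They therefore do not show whether epithelial and total lung libraries came from the same mice, and pairing was not tested. The counts of genes higher and lower in epithelial cells stayed within 1.5 times of 3790 and 3753 under every alternative run, with ranges of 3185 to 3918 and 3051 to 3756 when 1 library was left out. With a pseudocount of 5, the genes that differed by at least 1 numbered 1164 and 1139 in place of 1962 and 1931, because a larger pseudocount shrinks differences at low levels. Those 2 counts ran from 1889 to 1990 and from 1847 to 2011 with 1 library left out. The interaction counts of 587 and 698 were less stable and ran from 275 to 954 and from 240 to 1414. Of 206 genes given for the WT comparison, none changed direction and 24 changed their call in at least 1 alternative. Those not described above were Atp6v0d2, Car4, Flt4, Slit3 and Fmo2, which lost a call, and Myh11 and Tagln, which gained one without WT10. Of 14 genes given for the interaction, Fgfr4, Csf3r and Top2a lost their call in at least 1 alternative. Of 64 counts of list members, 24 moved by more than 1.5 times in at least 1 alternative. Groups of 3 libraries limit every test here, the absolute depth of the libraries is unknown, and the relative depth read from low values was ambiguous for the epithelial libraries.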
